A study of Rattus norvegicus with 12 samples.

Results

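Cholesterol synthesis and uptake genes were examined in cultures of rat cerebellar granule neurons, as a set of 31 listed genes that covers the mevalonate and sterol steps, the SREBP regulators, the linked fatty acid enzymes, and sterol transport and efflux. Members were found as probe sets (the array's units of measurement) whose single gene symbol in the platform table is on the list. This matching made no use of the measured values, but the list was chosen with earlier results of these data known. Of the 31 genes, 29 had at least 1 such probe set, 49 probe sets in all, of 31099 probe sets on the array. Hmgcs1 and Npc1 are not analysed here. After a filter on dim probe sets, 44 of the 49 probe sets remained and 5 did not, and the brightest probe set of each of the 29 genes was among the 44. Each gene is described below by that brightest probe set unless another is named.

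Total RNA was measured on 12 Affymetrix rat arrays, 3 per group, from cultures labelled LK (low potassium) at 3 h, GW (the compound GW5074) at 3 h, LK at 6 h and GW at 6 h. The labels do not say whether the GW cultures were also in low potassium, and no untreated or raised-potassium group is among these arrays, so time in low potassium and time in culture cannot be told apart. The 3 arrays of a group carry the letters A, B and C, and the labels do not say whether these are separate cultures, so p-values measure a spread between arrays that may be technical. The title of GW_6h A ends in e3, unlike the other 11 titles, with no meaning given in the sources used here. GW5074 is known as an inhibitor of the kinase c-Raf, and low potassium is a standard way to withdraw activity from granule neurons.

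Cells build cholesterol from acetyl-CoA through mevalonate, isoprenoids, squalene and lanosterol. When membrane sterol is low, the escort protein Scap carries the SREBP transcription factors from the endoplasmic reticulum to the Golgi for cleavage, and Insig proteins hold Scap back when sterol is high. The cleaved factors raise transcription of most enzymes on the route and of fatty acid enzymes, while oxysterol-activated LXR receptors raise efflux genes such as Abca1. In the brain, where lipoproteins of the blood hardly enter, neurons make part of their own cholesterol and take up sterol made by glia.

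Promoter sequences are printed of the genes called in both treatments from 3 h to 6 h, Abca1, Dhcr7 and Insig2 as higher and Scap, Mvd and Cyp51 as lower. These are the 6 of 8 such genes that have an entry, chosen after their values were seen. Sequences are the 250 bases before the annotated start, from RefSeq on assembly GRCr8, 5′ to 3′ on the strand of the gene, with capitals marking matches to CCAAT (the NF-Y box), GGGCGG (the GC box) or CACGTG (the E-box), searched on both strands. The Abca1 sequence is chr5:72596474-72596723 on the minus strand, Dhcr7 is chr1:208444184-208444433 on the plus strand, and Insig2 is chr13:35040099-35040348 on the minus strand. Scap is chr8:119184188-119184437 on the plus strand, Mvd is chr19:67414975-67415224 on the minus strand and Cyp51 is chr4:30991443-30991692 on the plus strand.
Abca1: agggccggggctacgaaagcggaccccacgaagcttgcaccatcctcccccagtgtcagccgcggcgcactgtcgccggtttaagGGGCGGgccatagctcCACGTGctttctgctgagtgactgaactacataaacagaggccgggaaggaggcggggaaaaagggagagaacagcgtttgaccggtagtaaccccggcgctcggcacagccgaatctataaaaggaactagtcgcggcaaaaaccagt
Dhcr7: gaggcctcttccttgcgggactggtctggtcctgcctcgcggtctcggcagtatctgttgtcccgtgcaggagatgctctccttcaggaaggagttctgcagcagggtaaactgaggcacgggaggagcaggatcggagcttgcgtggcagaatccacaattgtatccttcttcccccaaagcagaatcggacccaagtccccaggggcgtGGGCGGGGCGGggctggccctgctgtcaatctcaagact
Insig2: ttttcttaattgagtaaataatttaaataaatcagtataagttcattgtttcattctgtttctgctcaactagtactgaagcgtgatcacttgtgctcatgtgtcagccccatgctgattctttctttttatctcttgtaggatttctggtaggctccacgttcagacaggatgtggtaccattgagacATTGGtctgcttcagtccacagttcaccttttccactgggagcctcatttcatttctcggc
Scap: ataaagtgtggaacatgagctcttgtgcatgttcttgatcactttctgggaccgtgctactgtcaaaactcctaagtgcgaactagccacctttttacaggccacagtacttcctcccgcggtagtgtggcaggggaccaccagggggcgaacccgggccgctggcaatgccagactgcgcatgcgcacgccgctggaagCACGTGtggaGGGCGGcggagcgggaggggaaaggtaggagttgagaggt
Mvd: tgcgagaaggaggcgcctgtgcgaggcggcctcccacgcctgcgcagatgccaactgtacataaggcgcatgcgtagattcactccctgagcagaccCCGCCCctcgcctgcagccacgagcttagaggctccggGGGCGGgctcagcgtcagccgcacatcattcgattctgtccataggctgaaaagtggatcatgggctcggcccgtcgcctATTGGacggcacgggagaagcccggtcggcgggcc
Cyp51: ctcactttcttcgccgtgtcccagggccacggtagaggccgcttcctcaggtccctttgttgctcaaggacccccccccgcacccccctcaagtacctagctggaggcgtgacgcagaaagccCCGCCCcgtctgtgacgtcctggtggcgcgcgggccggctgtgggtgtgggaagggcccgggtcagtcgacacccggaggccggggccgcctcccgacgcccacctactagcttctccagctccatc

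A promoter entry was matched by symbol for 24 of the 29 genes, and Pmvk, Fdft1, Sqle, Stard4 and Fasn had none. CCAAT stood in 17 of the 24 member promoters, against 34.0% of all 33469 promoters in the table. GGGCGG stood in 20 of the 24, against 30.5% of all promoters. CACGTG stood in 4 (Insig1, Abca1, Sc5d and Scap), against 5.59%. TCACCCC, a stretch of the sterol regulatory element, stood in 1 (Srebf2), against 3.86%. In the printed sequences Mvd and Insig2 hold 1 CCAAT box each and the other 4 hold none, while all but Insig2 hold a GC box. The 2 GC boxes of Dhcr7 overlap by a base. These matches describe letters and are not measured binding sites.

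Deposited intensities are quoted as array values, and changes are differences of log2(intensity + 16) after quantile normalization, so a fold is on that scale and understates the change of dim genes. The Benjamini-Hochberg threshold was an adjusted p of 0.05 over 18625 tested probe sets. On the axis from the mean of the 3 h arrays (0) to the mean of the 6 h arrays (1), over tested probe sets other than those of the members, the 3 h arrays lay from -0.0780 to 0.106. The A and C arrays at 6 h lay from 1.08 to 1.19, but LK_6h B lay at 0.741 and GW_6h B at 0.684. All 15 listed markers of granule neurons passed the filter, among them Neurod1, Slc17a7, Gabra6 and Reln. So did 6 of 6 Purkinje and GABAergic, 8 of 9 astrocyte and 4 of 9 endothelial and fibroblast markers with a probe set. Passing the filter thus does not tell which cell types made up the cultures.

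From 3 h to 6 h the members moved in both directions. Sterol efflux gene Abca1 rose most, by 2.36-fold in low potassium and 2.50-fold with GW5074, and squalene synthase (Fdft1), the sterol reductase Dhcr7 and the SREBP retention factor Insig2 rose with it in both treatments. The SREBP escort Scap, the mevalonate enzymes Mvd and Pmvk, and the lanosterol demethylase Cyp51 fell in both treatments. In low potassium 10 of 29 members passed the threshold (34.5%), 5 higher and 5 lower, beside 22.7% of all tested probe sets (11.6% higher and 11% lower). With GW5074 11 of 29 passed (37.9%), 6 higher and 5 lower, beside 25% of all (13.1% higher and 11.9% lower). Averaged over both treatments, a comparison added after the data were seen, 12 members passed (41.4%), 6 higher and 6 lower, which is near the background of 41.1% (20.8% higher and 20.3% lower). The median member change was -0.04 in low potassium and 0.15 with GW5074, against -0.00 for all tested probe sets in each. The counts were lower without some single arrays. In low potassium 2 members passed without LK_3h B or without LK_6h C, 3 without LK_6h A and 6 without LK_3h C. With GW5074 4 passed without GW_6h C, 5 without GW_6h A, 6 without GW_3h B and 7 without GW_3h C. The share of all probe sets that passed without each array is not given here, so these falls are not read as particular to the members.

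The same 8 genes were called in both treatments (Abca1, Fdft1, Dhcr7, Insig2, Scap, Mvd, Pmvk and Cyp51), each in the same direction, against 15.7% of all tested probe sets. This is 80% of the members' low-potassium calls and 72.7% of their GW5074 calls, and over all probe sets the shares were 69.2% and 62.7%. The 2 comparisons use different arrays, but they share an estimate of the spread. Same-letter arrays of the 2 treatments also deviated together from their group means (correlations of 0.209 to 0.650). The shared calls are therefore not independent evidence. In 24 of the 29 genes the change had the same sign in both, against 79.9% of all probe sets, the others being Fads1, Fasn, Nsdhl, Scd and Srebf2. All these calls are from bulk RNA, in which fewer cells of a type and less RNA per cell cannot be told apart.

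Levels of cell type markers were compared over time in the same way, beside the 41.1% of all probe sets past the threshold averaged over treatments. The summed intensity of the 15 granule neuron markers was 15119 to 20742 on the 3 h arrays and 22262 to 28973 on the 6 h arrays, and 13 rose and 1 fell in the comparison averaged over treatments. The 9 astrocyte markers with a probe set summed to 2225 to 3094 at 3 h and 3593 to 5950 at 6 h; Gfap, Aldoc and Aqp4 rose among the 8 that passed the filter, and Slc1a2 did not pass it. The 9 oligodendrocyte lineage markers summed to 2677 to 3982 at 3 h and 1891 to 2788 at 6 h; Cnp and Mbp fell among the 7 that passed the filter, and Olig2 and Cspg4 did not pass it. Microglia and macrophage markers summed to 424 to 843 at 3 h and 432 to 820 at 6 h, with 0 of 6 tested past the threshold in limma, averaged over treatments, and Aif1, Itgam, Cx3cr1 and Ptprc below the filter. The calls of astrocyte (3 of 8) and oligodendrocyte lineage markers (2 of 7) were thus no more frequent than those of all probe sets, and those of granule neuron markers (14 of 15) were more frequent. None of these lists summed to 0 on any array. Their part in the member changes was not tested.

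**Figure D1:**
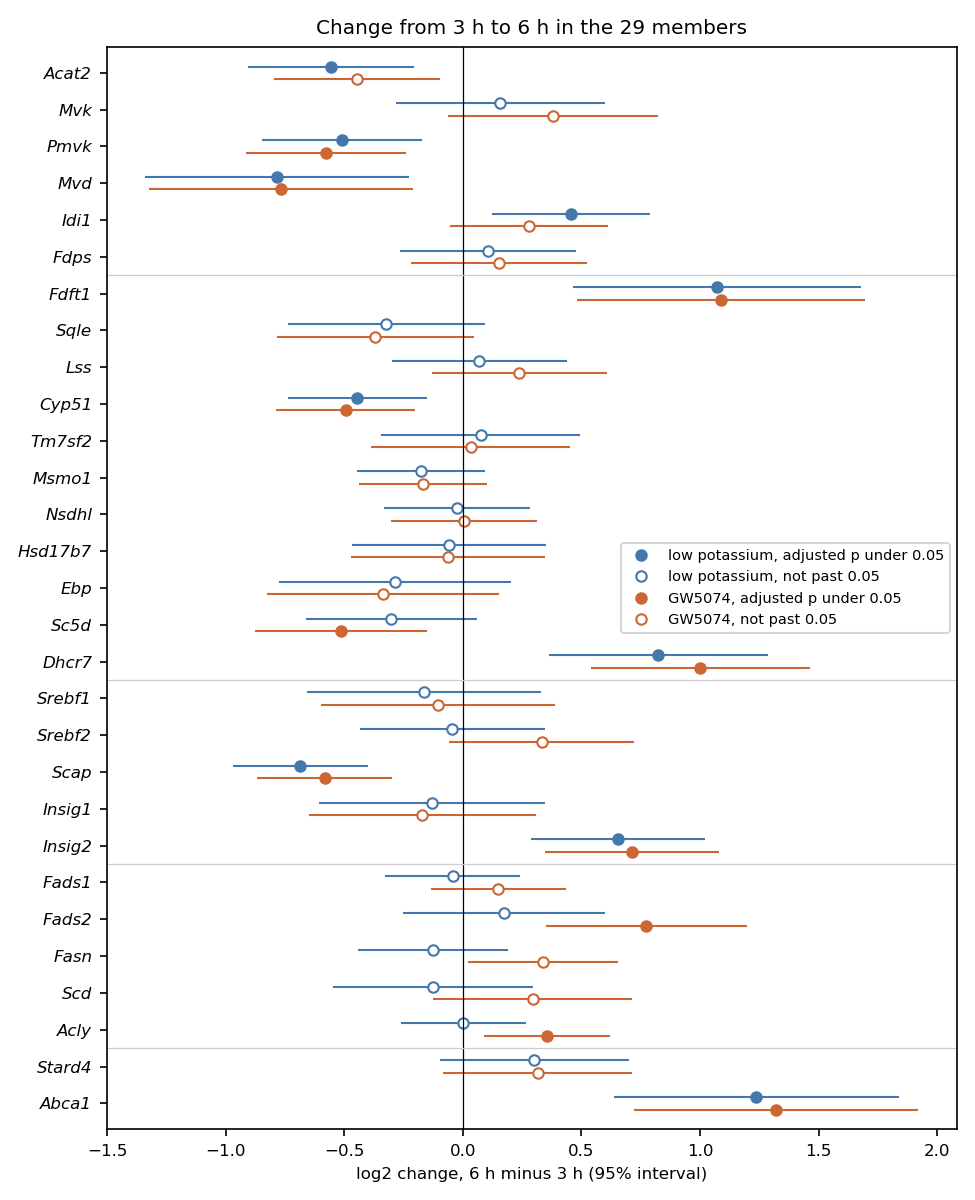
Log2 change from 3 h to 6 h with its 95% interval for each of the 29 members, blue in low potassium and orange with GW5074, filled where the adjusted p was under 0.05, grouped by role from the mevalonate steps at the top to sterol transport and efflux at the bottom. Abca1, Fdft1, Dhcr7 and Insig2 lie to the right and Scap, Mvd, Pmvk and Cyp51 to the left in both treatments.

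The mevalonate and isoprenoid steps, from acetyl-CoA to farnesyl diphosphate, gave 4 calls of 6 members in low potassium, 1 higher and 3 lower, and 2 of 6 with GW5074, both lower. Mvd makes isopentenyl diphosphate from mevalonate diphosphate. Its intensity at 3 h was 169, 202 and 228 on LK arrays A, B and C and 178, 210.2 and 243 on GW arrays. At 6 h it was 112, 136 and 96.5 on LK and 146, 186 and 62.7 on GW. The 6 h arrays lay below the 3 h arrays without overlap in low potassium, while GW_6h B lay above GW_3h A. Mvd fell by 0.78 on the log2 scale in low potassium (SE 0.259, limma adjusted p = 0.0437) and by 0.77 with GW5074 (SE 0.259, adjusted p = 0.0439). These calls were near the threshold. In low potassium the call was lost without any LK array other than LK_6h B (adjusted p 0.0592 to 0.141), and without GW_3h A, GW_3h B or GW_6h A (0.0505 to 0.0599). With GW5074 it was lost without any GW array other than GW_6h B (0.0606 to 0.178), and without LK_3h A, B or C or LK_6h A (0.0514 to 0.0593). Without GW_6h C the GW5074 change was -0.40.

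Pmvk, the kinase that makes mevalonate diphosphate, read 469.8, 597 and 667 on the LK arrays at 3 h and 381, 419 and 407 at 6 h. On the GW arrays it read 487, 556 and 526 at 3 h and 326, 439 and 317 at 6 h. The times did not overlap in either treatment. Pmvk fell by 0.51 in low potassium (SE 0.157, adjusted p = 0.0328) and by 0.58 with GW5074 (SE 0.157, adjusted p = 0.0166). The first call was lost without LK_3h B, LK_3h C, LK_6h A or LK_6h C (0.0835 to 0.115), and the GW5074 call without GW_3h B, GW_6h A or GW_6h C (0.0665 to 0.0760).

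Acat2, the cytosolic thiolase that joins 2 acetyl-CoA units, read 235, 274 and 262 on the LK arrays at 3 h and 141, 214 and 187 at 6 h. With GW5074 it read 236, 227 and 264 at 3 h and 187, 209.6 and 157 at 6 h. Each 6 h array lay below each 3 h array of its treatment. Acat2 fell by 0.56 in low potassium (SE 0.163, adjusted p = 0.0258), and the change with GW5074 was -0.44 (SE 0.163, adjusted p = 0.0605). The low-potassium call was lost without LK_3h B, LK_3h C, LK_6h A or LK_6h C (0.0568 to 0.114).

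Idi1, the isomerase that turns isopentenyl into dimethylallyl diphosphate, was the 1 member of these steps called higher, and only in low potassium. It read 585, 522 and 690.5 on the LK arrays at 3 h and 840.4, 713 and 932 at 6 h, without overlap. The GW arrays read 621, 524 and 597 at 3 h and 716, 582 and 868 at 6 h, where GW_6h B lay within the 3 h range. Idi1 rose by 0.46 in low potassium (SE 0.156, adjusted p = 0.0482), and the change with GW5074 was 0.28 (SE 0.156, adjusted p = 0.208). The low-potassium call was lost without LK_3h A, LK_3h B, LK_6h A or LK_6h C (0.114 to 0.182), and without GW_3h A, B or C or GW_6h A (0.0559 to 0.0625). Mvk and Fdps, the mevalonate kinase and the farnesyl diphosphate synthase, passed in neither treatment, with Mvk at 0.16 in low potassium and 0.38 with GW5074, and Fdps at 0.11 and 0.15.

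The 11 squalene and sterol steps gave 3 calls in low potassium, 2 higher and 1 lower, and 4 with GW5074, 2 higher and 2 lower. Fdft1, which joins 2 farnesyl units into squalene and so commits them to sterols, read 128, 114 and 151 on the LK arrays at 3 h and 392, 212 and 330.2 at 6 h. On the GW arrays it read 115, 109 and 106 at 3 h and 379, 147 and 329 at 6 h. The B array was the lowest at 6 h in each treatment, yet the times did not overlap. Fdft1 rose by 1.07 in low potassium (2.10-fold, SE 0.283, adjusted p = 0.0159) and by 1.09 with GW5074 (2.13-fold, SE 0.283, adjusted p = 0.0135). Its other tested probe set rose by 0.94 and 1.21. The call was lost without LK_3h B, LK_6h A or LK_6h C in low potassium (0.0577 to 0.0753) and without GW_6h A or GW_6h C with GW5074 (0.0580 to 0.0750).

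Dhcr7, the reductase that ends one route to cholesterol, read 234, 198 and 256 on the LK arrays at 3 h and 360.2, 392 and 565 at 6 h. With GW5074 it read 209, 184 and 217 at 3 h and 390.5, 341 and 646 at 6 h. All 6 h arrays lay above all 3 h arrays, and the C array was the highest at 6 h. Dhcr7 rose by 0.82 in low potassium (1.77-fold, SE 0.216, adjusted p = 0.0151) and by 1.00 with GW5074 (2.00-fold, SE 0.216, adjusted p = 0.00494). The low-potassium call was lost without LK_3h B or LK_6h C (0.0717 to 0.0756). The GW5074 call held without each single array.

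Cyp51, which removes a methyl group from lanosterol, read 897, 965 and 1131 on the LK arrays at 3 h and 739, 706 and 709 at 6 h. The GW arrays read 917, 950.5 and 1051 at 3 h and 645, 812 and 602 at 6 h. No 6 h array reached a 3 h array. Cyp51 fell by 0.45 in low potassium (SE 0.137, adjusted p = 0.0316) and by 0.49 with GW5074 (SE 0.137, adjusted p = 0.0183), and its other probe set fell by 0.80 and 0.58. The low-potassium call was lost without LK_3h B, LK_3h C or any LK_6h array (0.0517 to 0.110), and the GW5074 call without GW_3h B, GW_3h C, GW_6h A or GW_6h C (0.0516 to 0.0800).

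Sc5d, the lathosterol oxidase just before Dhcr7, read 447, 567 and 646 on the LK arrays at 3 h and 401, 457 and 489 at 6 h, with overlap. On the GW arrays it read 491, 561 and 697 at 3 h and 361, 452 and 433 at 6 h, without overlap. Sc5d fell by 0.51 with GW5074 (SE 0.169, adjusted p = 0.0389), and the change in low potassium was -0.30 (SE 0.169, adjusted p = 0.215). The GW5074 call was lost without GW_3h B, GW_3h C, GW_6h A or GW_6h C (0.0693 to 0.161) or LK_3h B (0.0532). The mean over its 3 probe sets gave -0.31 with GW5074. The other 7 genes of these steps (Sqle, Lss, Tm7sf2, Msmo1, Nsdhl, Hsd17b7 and Ebp) passed in neither treatment, with changes from -0.32 (Sqle) to 0.08 (Tm7sf2) in low potassium and from -0.37 (Sqle) to 0.24 (Lss) with GW5074.

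**Figure D2:**
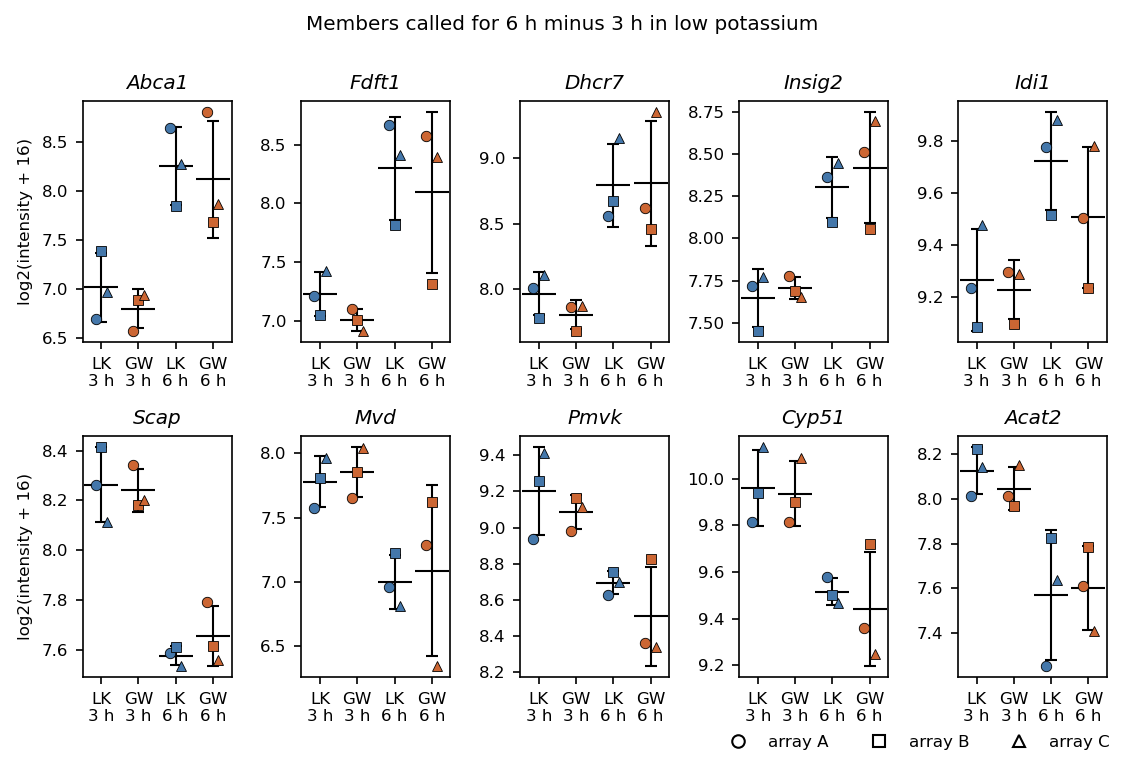
Log2(intensity + 16) after normalization on each array for members that differed between 3 h and 6 h, by group, with symbols for the array letters and bars for the group mean and SD (n = 3). The 6 h arrays sit above the 3 h arrays for Abca1 and Fdft1 and below them for Scap.

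Of the 5 SREBP regulators, the partners Insig2 and Scap moved in opposite directions in both treatments. Scap read 282, 318 and 257 on the LK arrays at 3 h and 182, 183 and 173 at 6 h. With GW5074 it read 299.7, 265 and 274 at 3 h and 215, 186 and 176 at 6 h. Every 6 h array lay below every 3 h array. Scap fell by 0.68 in low potassium (1.61-fold, SE 0.132, adjusted p = 0.00322) and by 0.58 with GW5074 (SE 0.132, adjusted p = 0.00653), and both calls held without each single array.

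Insig2, which retains Scap in the endoplasmic reticulum, read 189, 155 and 199 on the LK arrays at 3 h and 316, 259.8 and 339 at 6 h. The GW arrays read 197, 185 and 185 at 3 h and 363, 257 and 402 at 6 h. All 6 h arrays lay above all 3 h arrays, with the B array lowest at 6 h. Insig2 rose by 0.65 in low potassium (1.57-fold, SE 0.172, adjusted p = 0.0153) and by 0.71 with GW5074 (1.64-fold, SE 0.172, adjusted p = 0.00915). The low-potassium call was lost without LK_3h B, LK_6h A or LK_6h C (0.0542 to 0.0770), and the GW5074 call held without each single array. Its paralog Insig1, a known SREBP target, changed by -0.13 and -0.17 with adjusted p of 0.709 and 0.619. The transcription factors Srebf1 and Srebf2 passed in neither treatment (Srebf1 -0.16 and -0.10, Srebf2 -0.04 and 0.33).

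Abca1, the transporter that hands cholesterol to apolipoproteins, read 85.9, 147 and 107 on the LK arrays at 3 h and 385, 217 and 300.3 at 6 h. On the GW arrays it read 75.5, 100.05 and 108 at 3 h and 442, 195 and 223 at 6 h. The times did not overlap, and the A array was the lowest at 3 h and the highest at 6 h in each treatment. Abca1 rose by 1.24 in low potassium (2.36-fold, SE 0.279, adjusted p = 0.00717) and by 1.32 with GW5074 (2.50-fold, SE 0.279, adjusted p = 0.00448). Both calls held without each single array, with changes from 1.05 to 1.44 and from 0.98 to 1.54. Its 3 tested probe sets spanned 0.48 to 1.46 in low potassium, 2 of them past the threshold, and 0.57 to 1.32 with GW5074, all 3 past it. Stard4, a cytosolic sterol carrier, changed by 0.30 and 0.32 (adjusted p = 0.263 and 0.235), and its second probe set by -0.24 and -0.07.

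The 5 fatty acid genes gave no call over time in low potassium and 2 with GW5074, both higher. Fads2, a desaturase of polyunsaturated fatty acid synthesis, was dim: it read 38.4, 30.3 and 51.5 on the LK arrays at 3 h and 50.5, 51.4 and 36.5 at 6 h. With GW5074 it read 38.7, 36.7 and 38.7 at 3 h and 75.3, 62.5 and 88.4 at 6 h. The GW_6h arrays stood above the other 9. Fads2 rose by 0.77 with GW5074 (1.71-fold, SE 0.198, adjusted p = 0.0125), and its change in low potassium was 0.17 (adjusted p = 0.559). The call was lost without GW_6h C (0.0572), and with a pseudocount of 64 the change was 0.46.

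Acly, which makes cytosolic acetyl-CoA from citrate for both routes, read 299, 304 and 300.2 on the GW arrays at 3 h and 416, 374 and 434 at 6 h. On the LK arrays it read 325, 318 and 349 at 3 h and 304, 343 and 385 at 6 h. The GW arrays did not overlap between times and the LK arrays did. Acly rose by 0.36 with GW5074 (SE 0.124, adjusted p = 0.0492) and changed by 0.00 in low potassium (adjusted p = 0.990). The call was lost without any GW array other than GW_6h B (0.0987 to 0.143), without LK_3h A, B or C or LK_6h B (0.0538 to 0.0646), and with a random replicate block (0.0585). By their brightest probe sets, Fasn, Scd and Fads1 passed in neither treatment. The brightest Fasn probe set changed by 0.34 with GW5074 (adjusted p = 0.110), while a second one rose by 0.61 and passed the threshold.

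GW5074 was compared with low potassium at each time, averaged over times, and as the difference between its effects at 6 h and at 3 h. In each of these 4 comparisons 0 of 29 members passed the threshold in limma, with or without the array letter as a block. Of all tested probe sets 0% passed in each without the block, and 0.0161%, 1.87%, 0.236% and 0.193% with it. At an unadjusted p under 0.05 there were 0, 1, 1 and 2 members without the block, against 1.61%, 4.81%, 2.51% and 3.46% of all probe sets. With the block there were 1, 5, 4 and 4 members, against 6.58%, 16.3%, 10.1% and 13.5% of all, which is near the member shares at 6 h, averaged and for the difference. The smallest adjusted p of a member with the block was 0.716 at 3 h, 0.141 at 6 h (Fasn), 0.294 averaged and 0.162 for the difference (Fasn). These comparisons share arrays with each other and with the time comparisons, so their values are given side by side and not as separate evidence.

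Of the 5 fatty acid genes, 4 had the most positive member values at 6 h, and Fads1 did not. Fads2 was at 0.57 (95% interval 0.15 to 0.99, adjusted p = 0.160), Scd at 0.38 (0.02 to 0.74, adjusted p = 0.274), Fasn at 0.30 (0.09 to 0.51, adjusted p = 0.141), Acly at 0.23 (0.02 to 0.44, adjusted p = 0.265) and Fads1 at 0.03 (-0.17 to 0.22, adjusted p = 0.927), all from limma. At 3 h the same 5 genes were at -0.03, -0.04, -0.17, -0.12 and -0.17, and without LK_3h C those of Fads2 and Scd were at 0.12 and 0.14. Fasn, the fatty acid synthase, read 396, 403 and 323 on LK_6h and 549, 437 and 408 on GW_6h, so that the groups did not overlap. Scd, the desaturase that makes monounsaturated fatty acids, read 80.3, 57.4 and 68.4 on LK_6h and 83.5, 91.5 and 105 on GW_6h, also apart. None of these differences was past the threshold, and the Fads1 value turned negative without LK_6h C (-0.03) or GW_6h B (-0.07).

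**Figure D3:**
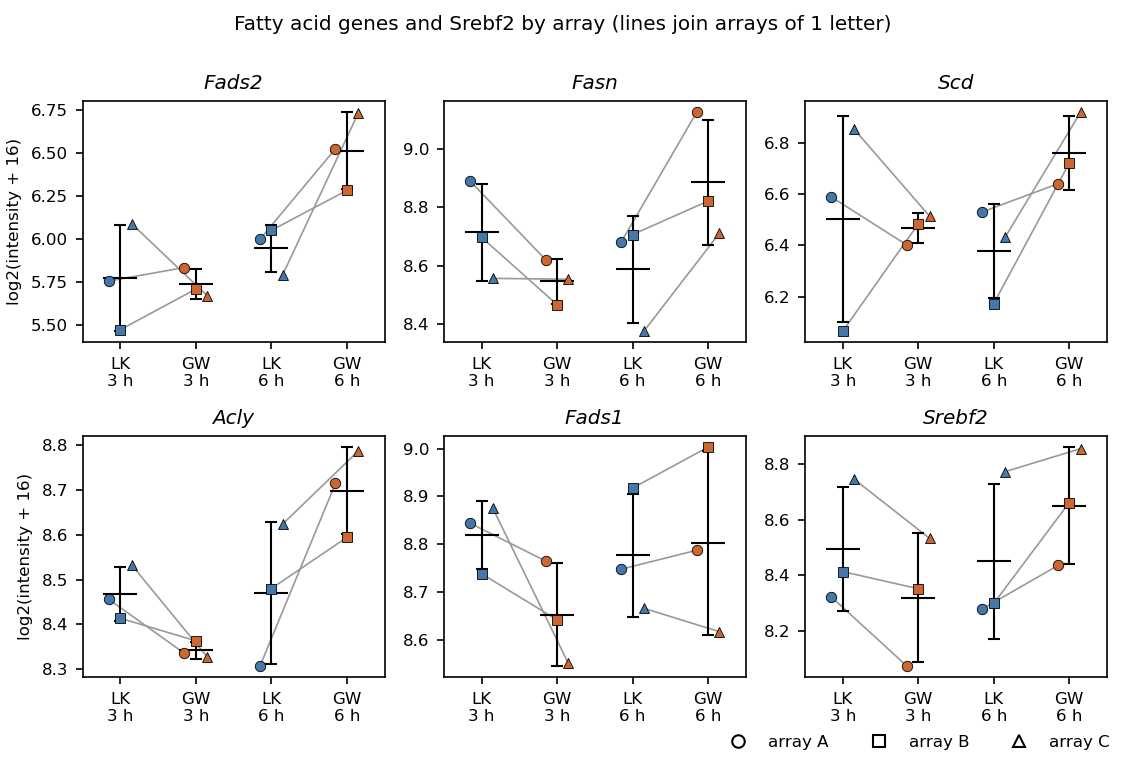
Log2(intensity + 16) after normalization on each array for the fatty acid genes and Srebf2, by group. Symbols show the array letters and bars the group mean and SD (n = 3). The GW_6h arrays of Fads2, Fasn and Scd sit above the LK_6h arrays, while for these genes the groups at 3 h overlap; grey lines join arrays of the same letter.

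In the difference between the effects at 6 h and at 3 h, Fads2 was at 0.60 (adjusted p = 0.365), Fasn at 0.46 (0.162), Scd at 0.42 (0.482), Srebf2 at 0.38 (0.255), Acly at 0.35 (0.284) and Fads1 at 0.19 (0.566). By pairs of the same letter, Srebf2, Fasn and Acly had the lower value with GW5074 in all 3 pairs at 3 h and the higher in all 3 at 6 h, that is 3 of 29 members against 3.41% of all tested probe sets. The Fasn C pair at 3 h was near 0 (-0.003). Srebf2, the SREBP family gene best known for sterol synthesis, read 294, 318 and 414 on LK_3h and 246, 302 and 352 on GW_3h. At 6 h it read 299, 301 and 429.8 on LK and 344, 393 and 459 on GW. The arrays of the groups overlapped at both times.

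At 3 h most members had a slightly lower value with GW5074: 23 of 29 were negative, against 50.9% of all tested probe sets, with a median of -0.07 against -0.00. Without LK_3h C 18 of 29 were negative, and without each other array 21 to 25. The lean was not particular to the members. In the same comparison 14 of 15 granule neuron, 7 of 7 oligodendrocyte lineage and 6 of 8 astrocyte markers were negative. Of the tested microglia and macrophage markers 3 of 6 were negative, and of the other pathway genes described below 22 of 42. In 9 members (Fdps, Fdft1, Msmo1, Dhcr7, Srebf2, Fads1, Fasn, Acly and Abca1) all 3 pairs had the lower value with GW5074, against 14.4% of all probe sets. The other tested probe sets of Fdft1 and Abca1 were not lower in every pair, while that of Fasn was. The lowest values were those of Fdft1 and Msmo1 (-0.22 each, adjusted p = 0.853 and 0.801 with the block). By brightest probe sets, the highest were those of Stard4 (0.13, but 0.01 without LK_3h B) and Sc5d (0.09, but -0.06 without GW_3h C). A second, dim probe set of Stard4 went the other way and was lower with GW5074 in every pair. Its mean intensity was 44.8 on LK_3h and 27.4 on GW_3h.

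At 6 h the members split, 14 positive and 15 negative, with a median of -0.00. GW5074 was higher in 3 of 3 pairs in 8 members (Mvk, Srebf2, Scap, Fads2, Fasn, Scd, Acly and Stard4), against 18.9% of all probe sets, and lower in 3 of 3 in 6 (Idi1, Fdps, Fdft1, Tm7sf2, Msmo1 and Sc5d), against 17.8%. Some of these pairs were near 0, such as Stard4 C (0.0044) and Scap B (0.0060). Another probe set had the opposite sign in Stard4 (-0.34), Scap (-0.23), Fdft1 (0.05) and Sc5d (0.11). The other tested probe sets of Mvk, Fasn and Idi1 had the same sign. The Fdft1 value of -0.20 was 0.19 without GW_6h B. The groups did not overlap with GW5074 higher in 3 members (Fads2, Fasn and Scd), against 5.04%, and with GW5074 lower in 1 (Msmo1), against 4.71%. Msmo1, a methylsterol oxidase of the lanosterol branch, read 343, 331 and 381 on LK_6h and 306, 325 and 296 on GW_6h. Its value was -0.21 (95% interval -0.44 to 0.02, adjusted p = 0.362 with the block). By brightest probe sets, Idi1 had the most negative value, -0.22 (-0.39 to -0.04, adjusted p = 0.207), which was -0.08 without GW_6h B. A second, dim probe set of Srebf1 was lower still, at -0.47, while the brightest was at -0.00. The second read 51.0, 36.2 and 36.5 on LK_6h and 25.2, 30.2 and 17.8 on GW_6h, without overlap. Neither passed the threshold in the fit without the block.

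In RNA quality, read as the excess of the actin control's 3′ end over its 5′ end in log2, each of the 6 GW5074 arrays exceeded its letter's low-potassium array, by 0.0182 to 0.297. The Gapdh control read in the same way differed by -0.0434 to 0.0702 and was lower with GW5074 in 2 of the 6 pairs. Their part in these values was not tested. Among 13 genes with several tested probe sets, all probe sets of a gene had the same sign in 6 for GW5074 against low potassium at 6 h. For the time change this was so in 10 low-potassium and 11 GW5074 comparisons of genes.

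**Figure D4:**
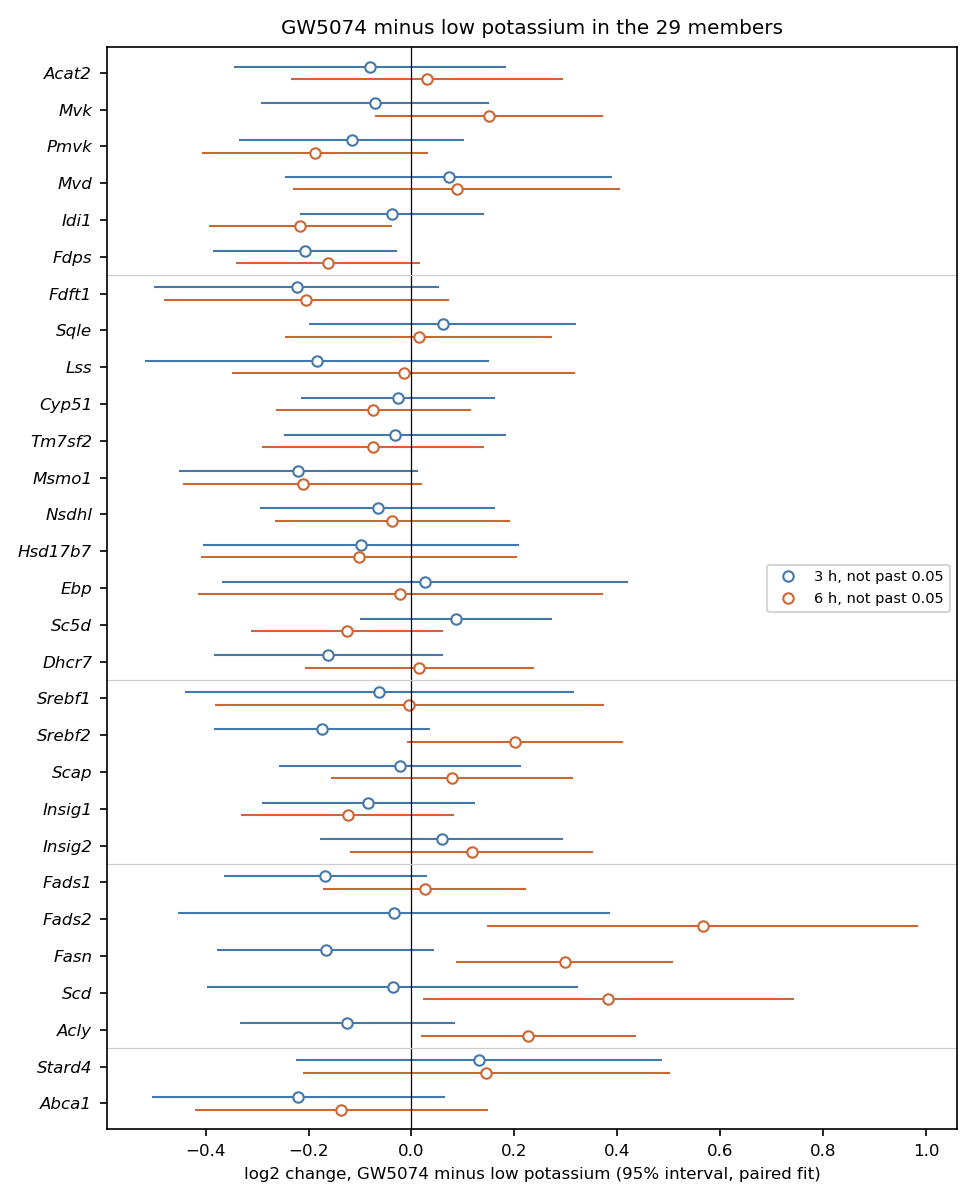
Log2 difference of GW5074 minus low potassium with its 95% interval from the fit with the array letter as a block, for each of the 29 members at 3 h and at 6 h. No member passed an adjusted p of 0.05, and Fads2, Scd and Fasn have the most positive values at 6 h.

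Among the members with no call, several differed between letters within a group. Fdps read 575, 628 and 751 on LK_3h, 539.9, 527 and 595 on GW_3h, 698, 544 and 887 on LK_6h and 598, 535 and 768 on GW_6h. GW5074 was lower in all 6 pairs in 3 members (Fdps, Fdft1 and Msmo1), against 2.3% of all probe sets. For Fdft1 this held for the brightest probe set only, with the C pair at 6 h at -0.01. Its other tested probe set was higher with GW5074 in the B pair at 3 h and the A and B pairs at 6 h. Fdps had an average of -0.18 over both times (SE 0.0597, adjusted p = 0.294 with the block). Insig1 read 533, 551 and 381 on LK_6h and 494, 599 and 301 on GW_6h, so that the C arrays stood lowest in each. Mvk read 327, 222 and 351 on LK_6h and 406, 235 and 386 on GW_6h, with the B arrays lowest.

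**Figure D5:**
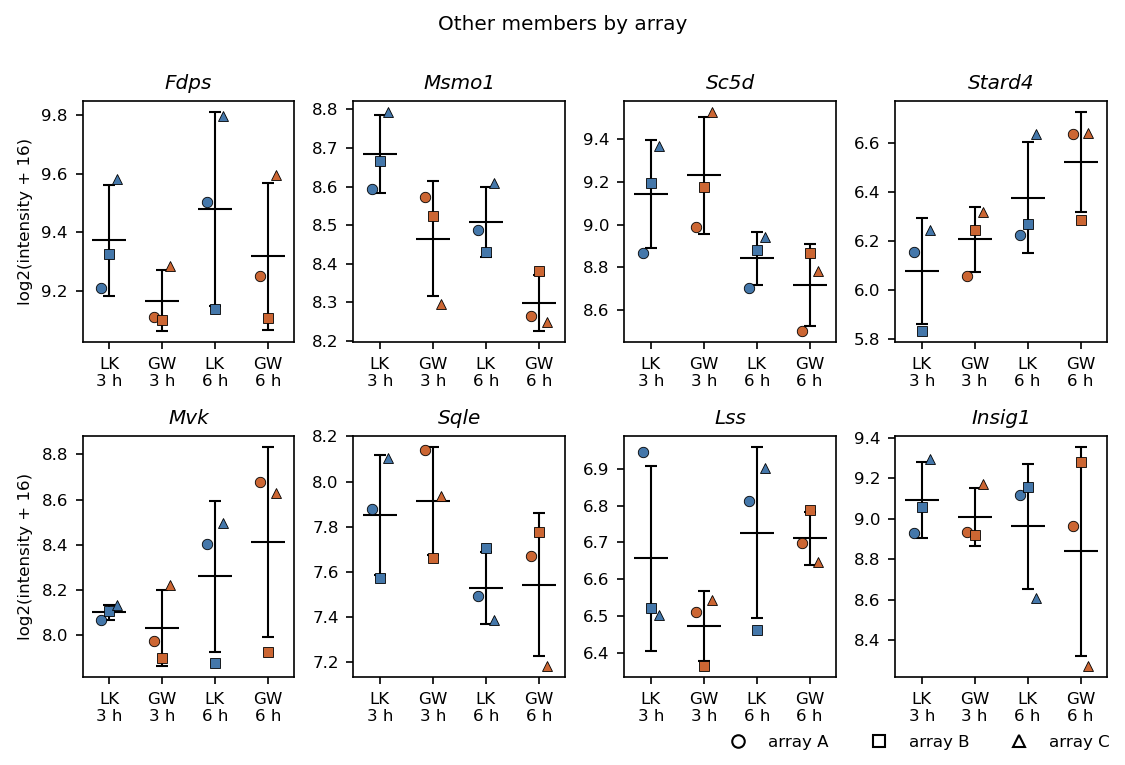
Log2(intensity + 16) after normalization on each array for Fdps, Msmo1, Sc5d, Stard4, Mvk, Sqle, Lss and Insig1, by group, with symbols for the array letters and bars for the group mean and SD (n = 3). The B arrays are the lowest at 6 h in Fdps and Mvk, and the C arrays in Insig1.

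Other genes of sterol and fatty acid handling were taken from a list of 48, of which 46 had a probe set and 42 were tested. In low potassium 3 rose, 5 fell and 34 did not pass, and with GW5074 6 rose, 6 fell and 30 did not pass. These are 19.0% and 28.6% of the genes tested, near the 22.7% and 25% of all probe sets. The 6 with the smallest p in low potassium were Vldlr, Tmem97, Stard5, Aacs, Acsl1 and Mbtps1. Vldlr, a lipoprotein receptor of neurons that also binds reelin, fell by 1.34 (limma adjusted p = 0.00133), and Tmem97, a sterol-regulated membrane protein, fell by 1.09 (0.00302). Stard5, a sterol carrier, fell by 0.96 (0.00900), and Aacs, which makes acetoacetyl-CoA from ketone bodies, fell by 0.61 (0.0188). Acsl1, a long-chain acyl-CoA synthetase, rose by 0.87 (0.000403), and Mbtps1, the first protease to cut SREBP, rose by 0.50 (0.0291).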

How the data were processed

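Total RNA of 12 samples in 4 groups was measured on an Affymetrix rat array. The deposited file holds a linear intensity for every probe set on every array. Its values show that the authors brought all arrays to a mean of 150, after 2% was trimmed from each end. The sources used here do not state how probes were summarised or with what software. Genes were named by the platform table's single symbols (20832 probe sets, 14218 genes).

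The 31099 probe sets less 57 controls were quantile-normalized, 16 was added and log2 taken. Probe sets at or above the 40th percentile of the mean over arrays were kept (18625). limma 3.58.1 in R 4.3.3 (lmFit, eBayes with trend, two-sided) fitted 4 group means (8 residual degrees of freedom), with Benjamini-Hochberg adjustment. Another fit used the letter within time as a block (4 residual degrees of freedom), for GW5074 against low potassium. Arrays were paired by their shared letter within a time, and the labels do not state that such arrays belong together. Deviations of same-letter arrays from their group means correlated by 0.209 to 0.543 at 3 h and 0.293 to 0.650 at 6 h. This fit was used wherever "with the block" or "paired" is written and for the intervals of GW5074 differences. The script was tested on simulated data. Figures used matplotlib 3.10.9 in Python 3.11.15. The number of arrays limits the precision.

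Named in full were members past the threshold in any comparison and the 2 highest and 2 lowest members of each; other pathway genes were limited to the 6 with the smallest p. Alternatives changed the normalization, pseudocount, filter, trend, weights, block and arrays. The members and lists were chosen with earlier results of these data known.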

Additional observations from a re-analysis of the deposited data

Results flagged for a closer look

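Srebf2, Fasn and Acly stood out because every pair of arrays with the same letter was lower with GW5074 at 3 h and higher at 6 h. This was so in 3 of 29 members, against 3.41% of all tested probe sets. The C pair of Fasn at 3 h was at -0.003, which is hardly a difference. The difference between the effects at 6 h and at 3 h was 0.38 for Srebf2, 0.46 for Fasn and 0.35 for Acly on the log2 scale. In limma, with the block of letters, the adjusted p was 0.255, 0.162 and 0.284, so none of these differences passed the threshold.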

How the results depend on the processing

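Counts of members called were recomputed without single arrays or without both arrays of a letter at a time. They ranged from 2 to 10 in low potassium, from 3 to 14 with GW5074 and from 9 to 15 averaged over treatments, a comparison chosen after seeing the data. For GW5074 against low potassium they stayed at 0 in each of the 4 comparisons, with and without the replicate block. Under the other settings the low-potassium count was 7 to 10 and the GW5074 count 8 to 16, the last with array weights. The shares of all probe sets that passed in these fits are not given here, so the ranges are not read as particular to the members. A random replicate block gave 10 and 10, and a fixed block of letters over both times gave 10 and 14; the block of letters within time could not be fitted as fixed for the time comparisons. Without a filter, the calls of Mvd and Idi1 in low potassium and of Mvd, Sc5d and Acly with GW5074 were lost (adjusted p 0.0538 to 0.0701). Without the mean-variance trend the same calls and that of Cyp51 in low potassium were lost (0.0551 to 0.0724). Without normalization between arrays those of Mvd in both treatments and Idi1 in low potassium were lost (0.0505 to 0.0702), with a pseudocount of 1 that of Mvd in low potassium (0.0502), and with the random block that of Acly with GW5074 (0.0585). Averaged over treatments, each of the 12 calls held without each single array. Without both arrays of a letter at a time, Idi1 and Sc5d were each lost in 3 cases and Fads2 in 2, and Fads2 was lost with the random block (0.0853). The Fads1 difference at 6 h turned to -0.03 without LK_6h C, -0.0750 without GW_6h B and -0.00 without both 6 h B arrays, and single arrays left out gave up to 0.12. The cause was not tested. Detection calls were not used here, which limits what can be said of dim genes such as Fads2.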
